A study of Glycine max with 54 samples.

Results

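The genes described here are 60 soybean genes whose transcript level was higher in every mock-treated library of the genotype P203 than in every mock-treated library of the genotype Dongnong47, on chromosomes 1 to 13. They were chosen by a score, the log2 ratio of the lowest level in the 9 P203 mock libraries to the highest level in the 9 Dongnong47 mock libraries, after 0.5 was added to both. Levels are given as CPM, each estimated count scaled to the library's total on chromosomes 1 to 13. The 60 highest scores were taken from 32958 identifiers (ids) on these chromosomes, of 53971 loci in the whole series. The score was above 0 for 108 ids, or 0.328%, so that the list holds the upper part of a small group of genes whose mock levels did not overlap. In the opposite direction, 113 ids had all 9 Dongnong47 mock levels above all 9 P203 mock levels. Since mock levels chose the genes, the mock difference between P203 and Dongnong47 is a description and was not tested.

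RNA was sequenced from the first trifoliolate leaves of seedlings of P203 (antixenosis), P746 (antibiosis) and Dongnong47 (susceptible), after 6 aphids (Aphis glycines) per leaflet had been caged on them (infested) or after an empty cage (mock). Leaves were sampled at 24, 48 and 96 h after infestation (HAI). Each of the 18 groups had 3 replicates, 54 libraries in all. Total estimated counts per library ran from 16596469 to 34982790, with 12148264 to 29079735 on chromosomes 1 to 13, so that 1 count was worth 0.0344 to 0.0823 CPM. Intervals and limits that come from counts cover counting error only. Fewer cells of a type and less RNA per cell cannot be told apart in these whole-leaf samples, and leaf identity was not checked with markers because the files give ids without gene names.

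The soybean aphid feeds on phloem sap through its stylets. Antixenosis is resistance that makes a plant unattractive to a pest, whereas antibiosis impairs the survival, growth or reproduction of a pest that feeds on the plant. A transcript difference that is present without the pest is called constitutive, as opposed to one that the pest induces. Reads of the 3 genotypes were mapped to a single reference genome, and the part of mapping in these differences was not tested.

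Libraries that stood apart touched most results and are given here. For each gene, the midpoint between its lowest P203 mock level and its highest Dongnong47 mock level, on the log2(CPM + 0.5) scale, divides a P203 side from a Dongnong47 side. All 60 genes were on the P203 side in each of the 9 P203 mock libraries, and none was in the 9 Dongnong47 mock libraries, by the rule. Of the infested libraries, which the rule did not use, those of P203 had 57 to 60 genes on the P203 side (median 59). Those of Dongnong47 had 0 to 7 in 8 libraries, but 54 in replicate 1 of the group labelled infested Dongnong47 at 96 HAI. In infested P746 replicate 3 at 48 HAI held 8, whereas the other 8 libraries held 30 to 59. In the Dongnong47 library with 54, the median gene was at 1.13 times its median level in P203 mock libraries. The 60 genes with the highest scores in the opposite direction were read likewise. This library had 0 of them on the Dongnong47 side, against 57 to 60 in the other 8 infested Dongnong47 libraries. Of the 60 genes higher in P203, the 6 that stayed on the Dongnong47 side in this library were GLYMA09G04150, GLYMA09G04140, GLYMA07G10451, GLYMA01G34723, GLYMA01G22880 and GLYMA06G13985. Counts of called genes and fitted values that rest on this library are given with and without it.

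**Figure D1:**
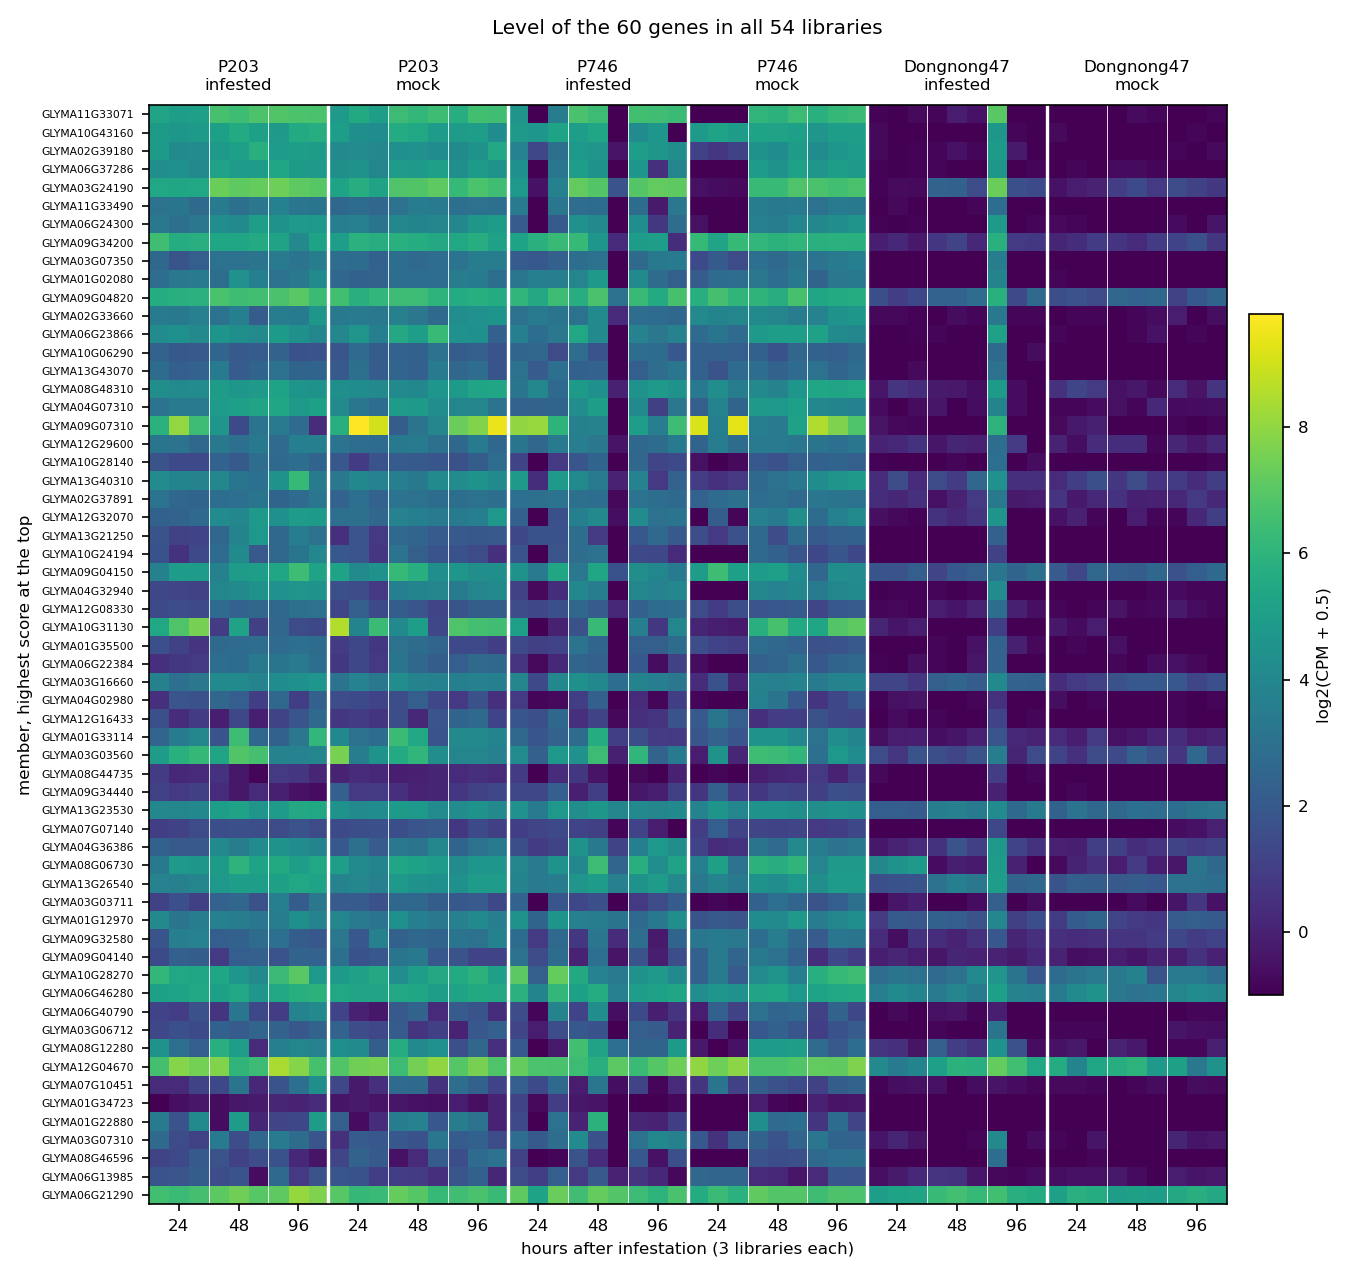
Level of the 60 genes (rows, highest score at the top) in all 54 libraries (columns, grouped by genotype and treatment, 3 libraries at each of 24, 48 and 96 h), as log2(CPM + 0.5) in colour. Dongnong47 libraries are mostly dark, other than infested replicate 1 at 96 h, which has 54 of 60 genes on the P203 side, and P746 libraries are mixed.

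**Figure D2:**
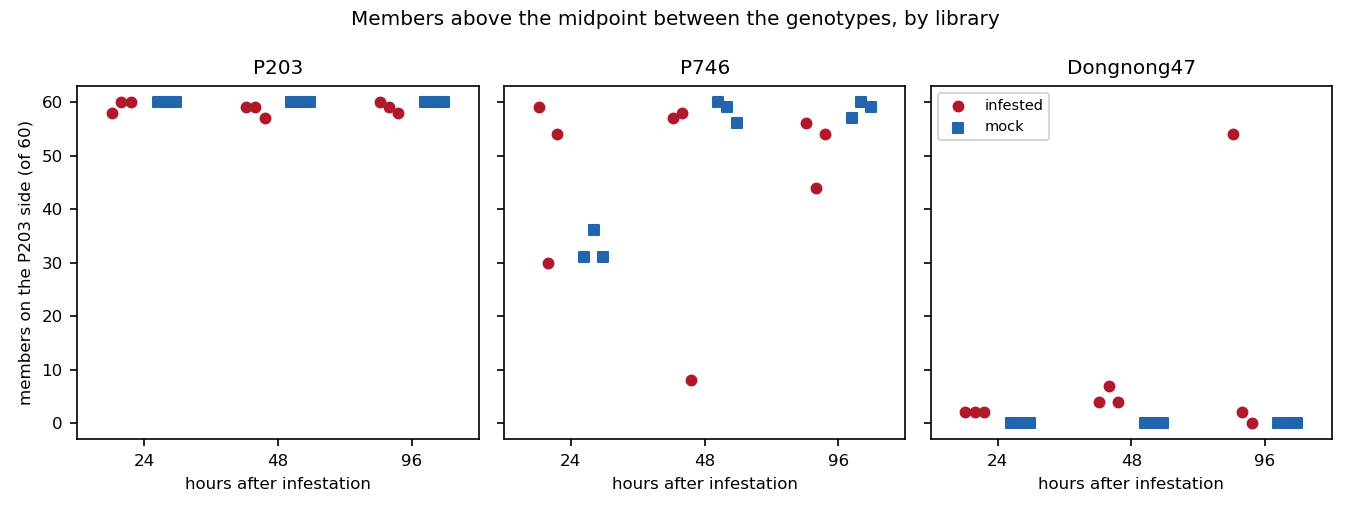
Number of the 60 genes on the P203 side of the midpoint in each library (points), by genotype, time and treatment. P203 libraries hold 57 to 60, P746 libraries run from 8 to 60, and Dongnong47 libraries hold 0 to 7 except for 1 infested library at 96 h with 54.

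Scores ran from 5.51 to 0.34, with a median of 1.28. A score of at least 1, 2, 3 and 4 was reached by 34, 19, 10 and 4 genes. Many of the genes were close to absent in Dongnong47: 9 had 0 counts in all 9 mock libraries, and 38 were at or below 1 CPM in each of them. In P203, 26 genes were at or above 5 CPM in every mock library, while 15 fell below 1 CPM in at least 1. The median gene had a median of 9.01 CPM in P203 mock libraries and of 0.0558 CPM in Dongnong47 mock libraries. In infested libraries the same medians were 9.47 CPM in P203 and 0.107 CPM in Dongnong47, or 0.0728 CPM in Dongnong47 without replicate 1 at 96 HAI. CPM is not divided by transcript length, so levels were compared between libraries and not between genes.

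None of the ids matched the RefSeq gene table (0 of 59048 genes), and only transcription factor families could be assigned, from the study's own annotation. It names 3 of the 60 genes. GLYMA13G40310 is in the B3 superfamily, which holds plant-specific DNA-binding proteins such as the auxin response factors. GLYMA04G02980 is a MIKC-type MADS-box gene, a class known for regulators of flowering and organ identity. GLYMA12G04670 is a basic helix-loop-helix (bHLH) gene, of a large family of dimeric DNA-binding regulators. The other 57 genes are known here by id only.

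The highest score belonged to GLYMA11G33071. It had 28.3 to 91.8 CPM in P203 mock libraries (median 70.3) and 0 to 0.13 CPM in Dongnong47 mock libraries (median 0). In infested libraries, it had 38.8, 31.6 and 33.5 CPM at 24 HAI, 99.1, 86.2 and 108 CPM at 48 HAI and 116, 105 and 103 CPM at 96 HAI in P203. In infested Dongnong47 it had 0 to 0.375 CPM in 8 libraries and 132 CPM in replicate 1 at 96 HAI. The groups were apart but for that library, which was above every P203 level.

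GLYMA10G43160 had the second score (4.97), with 18.6 to 49.4 CPM in P203 mock libraries (median 29.9) and 0 to 0.108 CPM in Dongnong47 mock libraries. It was among the 7 genes whose infested levels did not overlap even with all 18 libraries. The lowest infested P203 library had 25.5 CPM, and the highest infested Dongnong47 library, replicate 1 at 96 HAI, had 25.4 CPM. Without that library the Dongnong47 levels were at most 0.0869 CPM.

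GLYMA02G39180 (score 4.71) and GLYMA06G37286 (score 4.59) followed. GLYMA02G39180 had 17.5 to 55.6 CPM in infested P203 (median 30.3) and at most 0.356 CPM in the 8 other infested Dongnong47 libraries. GLYMA06G37286 had 16.6 to 39.6 CPM in infested P203 (median 28.9) and at most 0.0751 CPM in those 8 libraries. Replicate 1 of infested Dongnong47 at 96 HAI had 28.8 CPM of GLYMA02G39180 and 25.7 CPM of GLYMA06G37286, within the infested P203 ranges, and both were close to absent in the other 17 Dongnong47 libraries.

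GLYMA03G24190 (score 3.75) was measurable in both genotypes. It had 42.8, 40.6 and 42.7 CPM at 24 HAI, 164, 136 and 153 CPM at 48 HAI and 171, 138 and 125 CPM at 96 HAI in infested P203. In infested Dongnong47 it had 0.0435, 0.118 and 0.103 CPM at 24 HAI, 4.98, 4.54 and 2.32 CPM at 48 HAI and 163, 2.63 and 2.18 CPM at 96 HAI. In both genotypes the 24 HAI levels were below the later ones, and 64.8% of its listed values were not whole numbers.

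The other 5 of the 10 highest scores were GLYMA11G33490, GLYMA06G24300, GLYMA09G34200, GLYMA03G07350 and GLYMA01G02080, with scores of 3.55 to 3.19. In infested P203 libraries, GLYMA11G33490 had 6.11 to 13 CPM and GLYMA06G24300 had 7.40 to 32.0 CPM. GLYMA03G07350 had 3.03 to 10.9 CPM in infested P203 and 0 counts in each of 17 Dongnong47 libraries, against 11.4 CPM in the infested replicate 1 at 96 HAI. GLYMA01G02080 had 6.81 to 21.3 CPM in infested P203, and 0 counts in 8 infested Dongnong47 libraries with 13.5 CPM in that one. GLYMA09G34200 was never absent from Dongnong47. It had 16.4 to 89.1 CPM in infested P203 and 0.344 to 1.8 CPM in 8 infested Dongnong47 libraries, with 57.6 CPM in replicate 1 at 96 HAI. In that replicate GLYMA11G33490 had 7.01 CPM and GLYMA06G24300 had 27.1 CPM, and in the other 8 infested Dongnong47 libraries both had at most 0.0788 CPM.

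**Figure D3:**
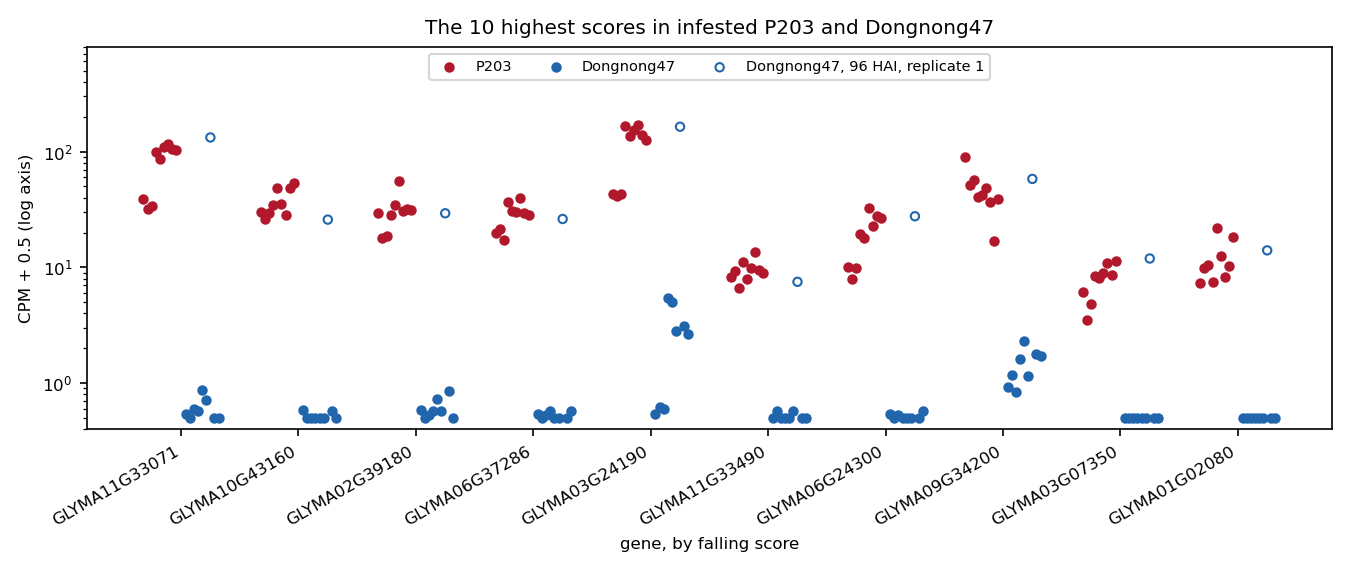
Level of the 10 highest-scoring genes (CPM + 0.5, log axis) in the 9 infested P203 libraries and the 9 infested Dongnong47 libraries, 1 point per library, in the order 24, 48 and 96 h from left to right. In each gene the P203 points lie above 8 Dongnong47 points, and the open circle, Dongnong47 replicate 1 at 96 h, lies near the P203 points.

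The genes at the limit of the list had small scores, for different reasons. GLYMA08G46596, GLYMA06G13985 and GLYMA06G21290 were the last 3 inside (0.35, 0.34 and 0.34). GLYMA10G23540, GLYMA11G18401 and GLYMA06G33080 were the first 3 outside (0.34, 0.32 and 0.31). GLYMA06G21290 was abundant in both genotypes, with 72.0 to 149 CPM in P203 mock libraries and 32.6 to 56.7 CPM in Dongnong47 mock libraries. GLYMA08G46596 was absent or close to it in Dongnong47 (0 to 0.0658 CPM), but fell to 0.219 CPM in 1 P203 mock library, against a highest P203 level of 7.89 CPM. A low score therefore stood for a small difference in some genes and for a single low P203 library in others. In 12 genes the highest P203 mock level was at least 10 times the lowest, and the median of this range was 3.68-fold.

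Infested leaves tested whether the genes also differed between the genotypes in libraries that had not chosen them. Of the 60 genes, 59 were tested, and all 59 were higher in infested P203 than in infested Dongnong47 (edgeR quasi-likelihood test over 9 against 9 libraries, averaged over the 3 times, adjusted p under 0.05 over all ids and at least a doubling or halving, which is 1 on the log2 scale). Of the 25035 ids tested, 1379 were higher, 5.51%, and 551 were lower, 2.2%. The remaining gene, GLYMA01G34723, did not pass the filter on low counts. Genes close to absent in Dongnong47 passed this filter only through P203, so that they could only be called as higher. The share over all ids, which holds ids present in both genotypes, is therefore not a like background for them. The median log2 fold change of the 59 genes was 4.47, beside 0.03 over all tested ids. Without Dongnong47 replicate 1 at 96 HAI, the same 59 genes were tested and called, beside 4.49% of the ids, with a median of 6.36, or of 5.97 where 8 genes with no count in the other 8 Dongnong47 libraries were set to their lower bound of 3 counts over those libraries. The 24 HAI libraries alone gave 45 calls among 59 genes tested, beside 0.64% of the ids, and the 48 HAI libraries alone gave 36 among 54, beside 0.277%. The 96 HAI libraries alone gave 0 calls by edgeR among 57, beside 0.0%, with 13 genes at an unadjusted p under 0.05. Without replicate 1 of Dongnong47 they gave 2, beside 0.00855%, with 56 at an unadjusted p under 0.05. DESeq2 was not run on single times.

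The levels themselves were apart for fewer genes. The lowest of the 9 infested P203 libraries was above the highest of the 9 infested Dongnong47 libraries in 7 of 60 genes, beside 0.167% of the ids that reached 1 CPM in a library. These were GLYMA10G43160, GLYMA09G04150, GLYMA03G03560, GLYMA09G04140, GLYMA06G40790, GLYMA07G10451 and GLYMA01G22880. Without Dongnong47 replicate 1 at 96 HAI, 52 of 60 genes did not overlap, beside 0.588% of the ids. The 8 genes that overlapped without it were GLYMA08G44735, GLYMA08G06730, GLYMA10G28270, GLYMA08G12280, GLYMA12G04670, GLYMA01G34723, GLYMA06G13985 and GLYMA06G21290. Over all 60 genes, the ratio of the mean infested P203 level to the mean of the 8 infested Dongnong47 libraries had a median of 48.3 and a lowest value of 2.56, where the 9 genes with no count in these 8 libraries were set to 3 counts over the group.

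GLYMA01G22880, GLYMA10G43160, GLYMA01G02080, GLYMA10G24194 and GLYMA13G21250 had the 5 largest fitted log2 fold changes with all 18 libraries, an order that changed without Dongnong47 replicate 1 at 96 HAI, where GLYMA11G33071 came first. GLYMA01G22880 had 0 counts in all 18 Dongnong47 libraries. In infested P203 it had 10.7, 2.90 and 17.0 CPM at 24 HAI, 0.143, 30.1 and 0.592 CPM at 48 HAI and 1.88, 2.04 and 30.8 CPM at 96 HAI, which is a wide spread within each time. Its mean was at least 9.14 log2 units above 3 counts over the 9 infested Dongnong47 libraries (adjusted p from edgeR 0.010, and 0.016 without replicate 1). GLYMA10G43160 differed by 8.05 ± 1.14 (SE, log2) with all 18 libraries, with an adjusted p from edgeR of 0.0017, and of 9.2e-08 without that replicate.

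GLYMA01G02080, GLYMA10G24194 and GLYMA13G21250 had 0 counts in the 8 other infested Dongnong47 libraries, so that no exact fold can be given for them. In infested P203, GLYMA10G24194 had 0.981 to 16.7 CPM and GLYMA13G21250 had 1.69 to 26.8 CPM, and in Dongnong47 replicate 1 at 96 HAI they had 1.61 and 4.43 CPM. Against 3 counts over those 8 libraries, the infested P203 means were at least 552-fold higher for GLYMA01G02080, at least 337-fold for GLYMA10G24194 and at least 415-fold for GLYMA13G21250. With all 18 libraries the adjusted p from edgeR was 0.0068, 0.0020 and 0.0046 in the same order, and without replicate 1 at 96 HAI it was at most 6.4e-05.

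The smallest log2 fold change among the 59 genes was that of GLYMA06G21290, 1.15 ± 0.13 (SE, adjusted p from edgeR 0.0004), and without replicate 1 at 96 HAI it was 1.15 too. It had 82.2 to 268 CPM in infested P203 and 31.5 to 94.3 CPM in the 9 infested Dongnong47 libraries, so that the ranges overlapped.

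GLYMA08G06730 had 15.6, 23.0 and 27.1 CPM in infested Dongnong47 at 24 HAI, and 0.108, 0.563 and 0.856 CPM in mock Dongnong47 at 24 HAI. At 48 HAI the infested Dongnong47 leaves had 0.14, 0.449 and 0.360 CPM. At 96 HAI infested Dongnong47 had 30.8, 0.499 and 0 CPM, the first in the library that stood apart, and mock Dongnong47 had 0.317, 8.42 and 5.64 CPM, so that the gene was also higher in 2 libraries without aphids. The 24 HAI infested levels lay within the range of infested P203, 9.81 to 62.6 CPM. It was the only gene on the P203 side in all 3 infested Dongnong47 libraries at 24 HAI, and was chosen for this description after its values were seen. At 48 HAI GLYMA08G12280 and GLYMA06G21290 were on the P203 side in all 3.

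Of the annotated genes, GLYMA13G40310 (B3) had 7.29 to 73.7 CPM in infested P203 and 0.722 to 5.33 CPM in 8 infested Dongnong47 libraries, with 21.6 CPM in replicate 1 at 96 HAI. Its log2 fold change was 2.49 ± 0.57 (SE, adjusted p from edgeR 0.014), and 3.37 ± 0.45 without that library. GLYMA04G02980 (MADS-box) was low, with 0.911 to 5.50 CPM in infested P203 and 0 to 0.241 CPM in those 8 libraries, with 0.966 CPM in the remaining one (log2 fold change 4.68 ± 0.73, adjusted p from edgeR 0.0020, and 6.47 ± 0.71 without it). GLYMA12G04670 (bHLH) was abundant in both genotypes, with 66.0 to 342 CPM in infested P203 and 10.4 to 152 CPM in infested Dongnong47. Its groups overlapped and its log2 fold change was 1.97 ± 0.32 (SE, adjusted p from edgeR 0.0027), and 2.04 ± 0.35 without replicate 1 at 96 HAI.

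Other gene lists on these chromosomes were read against the share of all tested ids, 5.51% higher and 2.2% lower in infested P203. Of 57 tested WRKY genes, a family of regulators of plant defence, 27 were higher in infested P203 and 0 were lower, with a median log2 fold change of 1.67. Of 17 tested genes related to salicylic acid, a hormone of defence against pathogens and sap-feeding insects, 8 were higher. Of 35 tested genes related to jasmonic acid, a hormone of defence against wounding and chewing insects, 1 was higher, a share below that of all tested ids. Of the other lists, 14 of 83 AP2/ERF genes, 10 of 49 MYB genes, 8 of 63 bHLH genes and 1 of 5 callose synthase genes were higher, and 4, 1, 1 and 0 were lower, while neither of 2 catalase genes was called. Among all 624 tested transcription factor genes, 93 were higher and 11 were lower. Without Dongnong47 replicate 1 at 96 HAI, 4.49% of all tested ids were higher. Of the families, 29 WRKY, 10 AP2/ERF, 7 MYB and 4 bHLH genes were then higher, and 1 of each was lower. Among all 625 transcription factor genes tested then, 78 were higher and 12 were lower. The study chose the jasmonic acid, salicylic acid and transcription factor genes from these libraries, so these counts are not independent evidence. GLYMA04G02980, GLYMA13G40310 and GLYMA12G04670 are the only ones of the 60 genes in any of these lists.

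P746 libraries had some of the genes on the P203 side of the midpoint and others on the Dongnong47 side, and this differed between times. A gene on the P203 side could still be below every P203 mock library. GLYMA03G07350 was on it in all 3 mock P746 libraries at 24 HAI, the lowest at 2.18 CPM, against at least 4.59 CPM in mock P203. In mock P746, 31, 36 and 31 of the 60 genes were on the P203 side at 24 HAI, 60, 59 and 56 at 48 HAI and 57, 60 and 59 at 96 HAI. At 24 HAI, 30 genes were on the P203 side in all 3 mock libraries, 24 were on it in none, and 6 were on it in 1 or 2. At 48 and 96 HAI, 53 of the 60 genes were on the P203 side in all 6 mock libraries. Of the 24 genes on the Dongnong47 side at 24 HAI, 21 were on the P203 side in all 6 later mock libraries. The 3 mock libraries at 24 HAI therefore stood together and apart from the 6 later ones. Files at 24 HAI also differed from later ones in the share of values not whole, and its part in this split was not tested.

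The 60 genes of the opposite list, highest in Dongnong47 by the same score, split at the same time. Of these, 26 to 27 were on the Dongnong47 side in the 3 mock P746 libraries at 24 HAI, and 0 to 1 in the 6 at 48 and 96 HAI. Both lists thus had 24 HAI mock P746 libraries between the genotypes and later ones on the side of P203.

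The 24 genes on the Dongnong47 side at 24 HAI in mock P746 included 6 of the 10 highest scores. GLYMA11G33071 had 0 counts in the 3 mock P746 libraries at 24 HAI, 68.8, 61.1 and 82.6 CPM at 48 HAI and 57.7, 72.6 and 80.6 CPM at 96 HAI. GLYMA06G37286 likewise had 0 counts at 24 HAI, then 30.9, 21.9 and 36.1 CPM and 24.5, 31.6 and 28.2 CPM. GLYMA11G33490 had 0 counts at 24 HAI, then 11.3, 9.87 and 10.2 CPM and 7.88, 10.3 and 9.93 CPM. In mock P203 the lowest levels at 24 HAI were 28.3, 14.7 and 5.34 CPM, so that none of these 3 genes was absent. In GLYMA11G33071 and GLYMA11G33490 all 3 mock P203 levels at 24 HAI were nonetheless below the 6 later ones (at least 52.4 and 7.17 CPM). GLYMA02G39180 was detected at 24 HAI in mock P746, at 1.65, 1.14 and 1.68 CPM, above Dongnong47 (at most 0.107 CPM in mock libraries) and below P203 (at least 15.4 CPM). Of the 24 genes, 8 had 0 counts in all 3 libraries.

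The 30 genes on the P203 side at 24 HAI in mock P746 included the other 4 of the 10 highest scores. GLYMA10G43160 had 27.3, 37.1 and 29.7 CPM at 24 HAI, 38.0, 36.2 and 33.6 CPM at 48 HAI and 24.4, 32.0 and 33.0 CPM at 96 HAI in mock P746. In the same order GLYMA09G34200 had 74.5, 39.4 and 74.2 CPM, then 71.0, 61.4 and 67.9 CPM and 57.3, 59.1 and 56.5 CPM. In both genes the 24 HAI levels overlapped the later ones, and the 3 levels at 48 HAI lay above the 3 at 96 HAI. GLYMA03G07350 had 2.18, 3.70 and 2.29 CPM at 24 HAI and 6.19 to 12.1 CPM later, and GLYMA01G02080 had 3.90, 6.39 and 6.65 CPM at 24 HAI and 5.07 to 9.81 CPM later.

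**Figure D4:**
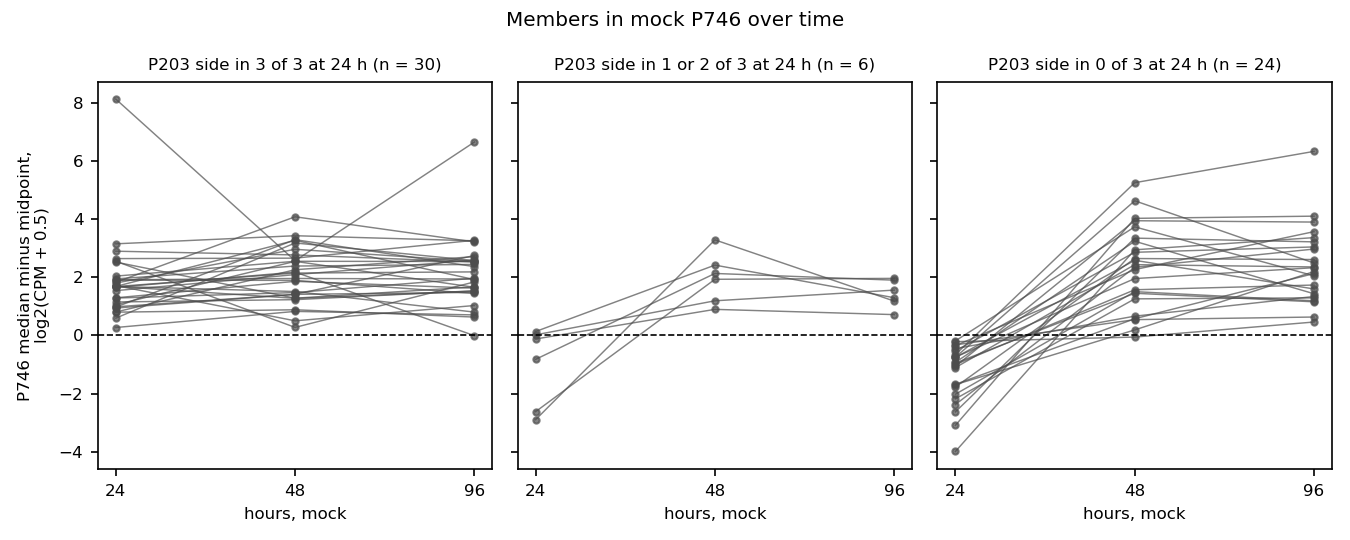
Median level of each gene in mock P746 at 24, 48 and 96 h (lines), as the difference from its midpoint on the log2(CPM + 0.5) scale, in 3 panels set by the number of the 3 libraries at 24 h on the P203 side. Above the dashed line is the P203 side; the 24 genes of the right panel start below it by the way the panels were made, and 21 of them were above it in all 6 later libraries.

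Infested P746 libraries were more uneven. At 24 HAI, 59, 30 and 54 genes were on the P203 side in replicates 1, 2 and 3, at 48 HAI 57, 58 and 8, and at 96 HAI 56, 44 and 54. Replicate 2 at 24 HAI had the pattern of the mock libraries of that time: 27 of its 30 genes were on the P203 side in all 3 of them, and of the 24 genes that were on it in none of them it had only GLYMA01G34723. Replicates 1 and 3 at 24 HAI had 23 and 19 of these 24 genes on the P203 side. GLYMA11G33071 had 23.4, 0 and 11.1 CPM in replicates 1, 2 and 3 at 24 HAI, so that all 3 were below every P203 library (at least 28.3 CPM).

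Replicate 3 of infested P746 at 48 HAI was close to Dongnong47. Its 8 genes on the P203 side were GLYMA03G16660, GLYMA13G23530, GLYMA13G26540, GLYMA01G12970, GLYMA08G12280, GLYMA12G04670, GLYMA06G13985 and GLYMA06G21290. GLYMA10G43160, on the P203 side in the 9 mock P746 libraries, had 32.2, 40.4 and 0 CPM at 48 HAI, and GLYMA09G34200 had 75.2, 24.7 and 0.712 CPM. At 96 HAI, where replicate 2 had the fewest genes on the P203 side, replicates 1, 2 and 3 had 2, 23 and 22 genes of the opposite list on the Dongnong47 side. GLYMA10G43160 had 18.2, 24.6 and 0 CPM and GLYMA09G34200 had 31.0, 32.0 and 0.823 CPM, both low in replicate 3. GLYMA06G37286 had 25.2, 0.881 and 14.4 CPM and GLYMA11G33490 had 6.63, 0.367 and 9.14 CPM, both low in replicate 2.

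No gene was on the P203 side in all 18 P746 libraries. The 5 highest-scoring genes with 17 of 18 were GLYMA03G07350, GLYMA01G02080, GLYMA09G04820, GLYMA02G33660 and GLYMA06G23866. The lowest counts were 10 of 18 for GLYMA01G34723, which had at most 0.555 CPM in P203 mock libraries, and 11 of 18 for GLYMA13G40310, GLYMA04G02980, GLYMA08G44735, GLYMA04G36386 and GLYMA10G28270. The MADS-box gene GLYMA04G02980 had 0.0660, 0 and 0 CPM in mock P746 at 24 HAI, 12.8, 8.47 and 3.39 CPM at 48 HAI and 1.03, 2.06 and 3.47 CPM at 96 HAI. The B3 gene GLYMA13G40310 had 1.45, 0.942 and 1.23 CPM, then 6.14, 7.77 and 9.35 CPM and 18.5, 23.8 and 27.1 CPM. The bHLH gene GLYMA12G04670 had 102 to 253 CPM in the 9 mock P746 libraries, within the P203 mock range of 83.9 to 255 CPM.

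The test of P746 against Dongnong47 in infested leaves changed with the libraries and the tool. With all 18 libraries, 0 of 59 tested genes were called by edgeR, beside 1 higher, 0.00398%, and 0 lower, 0.0%, of 25143 ids. An unadjusted p under 0.05 was reached by 56 of the 59, all 59 log2 fold changes were above 0 and their median was 3.85, beside 0.03 over all tested ids. DESeq2 called 51 of the 59 as higher, beside 3.56% of the ids, and 0 as lower, beside 0.784%. Without Dongnong47 replicate 1 at 96 HAI, edgeR called 38 of 60 genes as higher in infested P746, beside 0.521% of the ids. Without P746 replicate 3 at 48 HAI it called 44 of 60, beside 1.97%, and without P746 replicate 2 at 24 HAI 15 of 60, beside 0.48%. Genes close to absent in Dongnong47 passed the filter on low counts only through P746 here, so that they could only be called as higher. The shares over all ids are therefore not a like background for them. The same Dongnong47 libraries serve this comparison and that of P203 with Dongnong47.

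Infested P203 against infested P746 gave 0 called genes of 60 by edgeR, beside 0 higher, 0.0%, and 0 lower of 25464 ids. DESeq2 also called 0 of the 60, beside 0.232% of the ids higher and 1.59% lower. An unadjusted p under 0.05 was reached by 6 of the 60 genes, by edgeR, and by 8 by DESeq2. The log2 fold change was above 0 in 53 of the 60, with a median of 0.60, beside -0.04 over all tested ids. Without P746 replicates 1 and 3 at 24 HAI and replicate 3 at 48 HAI, 5 genes were called as higher in P203, beside 0.12% of the ids, and the 24 HAI group then rested on 1 P746 library that was assumed to vary like the other groups.

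Few of the genes were called between infested and mock P203. At 24 HAI 0 of 59 and at 48 HAI 0 of 58 tested genes were called by edgeR, where 0 ids, 0.0%, were called in the whole table at both times. Unadjusted p-values under 0.05 were reached by 0 and 6 of the genes by edgeR, and DESeq2 called 0 of the genes at either time, beside 0.347% of the ids higher and 0.0311% lower at 24 HAI and 0.388% and 0.348% at 48 HAI. At 96 HAI 2 of 59 genes were higher in infested P203, beside 3.57% of the ids tested, and 2 were lower, beside 3.56%, so that both shares were near those of the whole table. The mock libraries of these comparisons were among those that chose the genes.

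The 2 genes that were higher at 96 HAI were GLYMA04G07310 and GLYMA01G35500. GLYMA04G07310 had 41.2, 27.1 and 34.4 CPM in infested P203 and 14.9, 14.4 and 8.14 CPM in mock P203 (log2 fold change 1.2 ± 0.26, adjusted p from edgeR 0.043). GLYMA01G35500 had 6.31, 7.17 and 6.54 CPM in infested P203 and 2.09, 2.1 and 1.43 CPM in mock P203 (log2 fold change 1.57 ± 0.33, adjusted p from edgeR 0.042). The groups did not overlap in either gene. Both calls were lost when any 1 of the 6 libraries was left out.

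The 2 genes that were lower at 96 HAI were GLYMA10G31130 and GLYMA09G07310. GLYMA10G31130 had 5.46, 2.25 and 2.07 CPM in infested P203 and 111, 93.5 and 89.6 CPM in mock P203 (log2 fold change -5.19 ± 0.50, adjusted p from edgeR 0.013). GLYMA09G07310 had 10.2, 6.29 and 0.705 CPM in infested P203 and 158, 212 and 705 CPM in mock P203 (log2 fold change -6.40 ± 1.29, adjusted p from edgeR 0.039). The groups were apart in both genes at 96 HAI. Both genes also varied widely without aphids, from 1.93 to 373 CPM and from 4.0 to 884 CPM over the 9 mock P203 libraries. Of the listed values of GLYMA10G31130 97.6% were not whole numbers, and of those of GLYMA09G07310 97.7%. GLYMA10G31130 lost its call without mock replicate 1, mock replicate 2 or infested replicate 2 (adjusted p from edgeR 0.067, 0.068 and 0.071). GLYMA09G07310 lost its call when any 1 library but infested replicate 3 was left out (adjusted p from edgeR 0.065 to 0.15).

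Between 24 and 48 HAI, 10 of 59 tested genes were called by edgeR as rising in infested P203, beside 5.8% of the ids tested. As falling, edgeR called 0, beside 3.04%. The median log2 fold change by edgeR was 0.57, beside -0.0027 over all tested ids, and the lowest among the 59 was -3.68. DESeq2 called 13 of the 59 as higher and 3 as lower, beside 2451 and 2159 of 22830 ids. Of the 60 genes, 26 had all 3 levels at 48 HAI above all 3 at 24 HAI, beside 19.7% of the ids that reached 1 CPM, and 6 had the opposite order, beside 14.2%. In mock P203, 17 of the 60 had all 3 levels at 48 HAI above all 3 at 24 HAI, beside 17.7% of these ids. With and without aphids alike, 13 had this order, beside 10.5%, so the rise was not particular to infested leaves. Mock levels had chosen the genes. The files at 24 HAI also differed from the later ones in the share of values not whole, and its part in these changes was not tested. Between 48 and 96 HAI, 0 of 58 genes were called by edgeR, beside 2 higher, 0.00885%, and 2 lower of 22604 ids. An unadjusted p under 0.05 was reached by 1 gene, and DESeq2 called 1 as lower, beside 1.92% of the ids, and 0 as higher, beside 0.863%.

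The largest rise was that of GLYMA04G32940. It had 2.04, 1.87 and 1.70 CPM at 24 HAI, 15, 17.5 and 22.4 CPM at 48 HAI and 21.5, 24.4 and 22.4 CPM at 96 HAI in infested P203 (log2 fold change at 48 against 24 HAI 3.26 ± 0.34, adjusted p from edgeR 0.014). Mock P203 had 2.65, 2.28 and 1.24 CPM at 24 HAI and 12, 13.7 and 14.5 CPM at 48 HAI, so the levels were low at 24 HAI with and without aphids. In mock P746 the gene had 0 counts at 24 HAI and 15.6, 13.4 and 15.7 CPM at 48 HAI.

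GLYMA13G21250 had 2.95, 1.69 and 1.75 CPM at 24 HAI and 5.48, 13.8 and 26.8 CPM at 48 HAI in infested P203 (log2 fold change 2.89 ± 0.66, adjusted p from edgeR 0.046). GLYMA06G22384 had 0.908, 1.2 and 1.31 CPM, then 6.96, 6.61 and 9.91 CPM (2.72 ± 0.46, adjusted p from edgeR 0.026). GLYMA04G36386 had 4.61, 3.57 and 3.59 CPM, then 17.5, 10.9 and 18.1 CPM (1.97 ± 0.34, adjusted p from edgeR 0.027). GLYMA12G32070 had 4.66, 4.96 and 5.99 CPM, then 18, 15.7 and 27.1 CPM (1.94 ± 0.38, adjusted p from edgeR 0.034). In each of these 4 genes the 3 levels at 48 HAI were above those at 24 HAI. Their means in mock P203 were higher at 48 than at 24 HAI too. From 24 to 48 HAI these went from 1.75 to 5.03 CPM in GLYMA13G21250 and from 1.47 to 6.03 CPM in GLYMA06G22384. In GLYMA04G36386 they went from 4.82 to 11.2 CPM, and in GLYMA12G32070 from 6.60 to 11.8 CPM. The other 5 were GLYMA01G35500, GLYMA03G24190, GLYMA04G07310, GLYMA11G33071 and GLYMA13G26540, with log2 fold changes of 1.13 to 1.81. Leaving out 1 library gave 0 to 10 called genes. Without replicate 2 or replicate 3 at 24 HAI it was 0, where 0 of 23620 and 0 of 23554 ids were called. Without replicate 1 at 24 HAI it was 1, beside 168 ids higher and 147 lower of 23255. Without replicate 3 at 48 HAI it was 1, beside 79 ids higher and 33 lower of 23678.

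**Figure D5:**
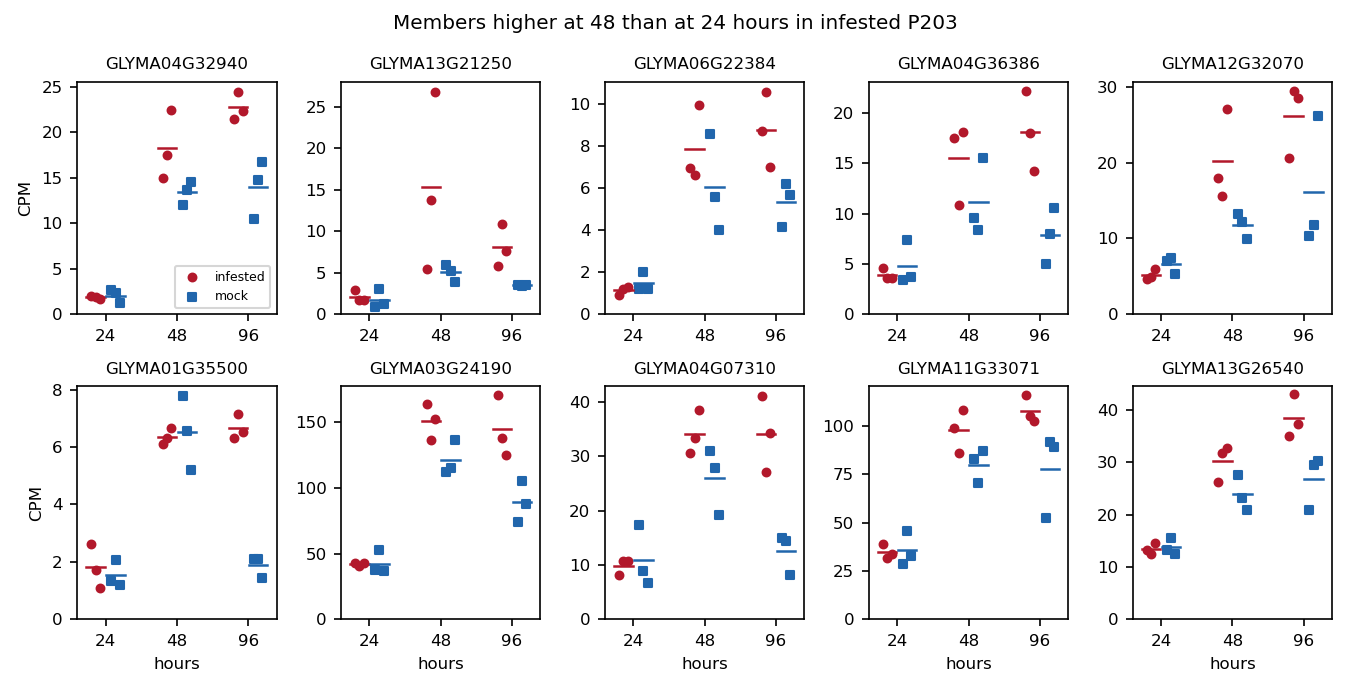
Level (CPM) of the 10 genes that rose between 24 and 48 h in infested P203, in infested and mock P203 libraries at 24, 48 and 96 h, with points for libraries and short lines for means of 3. The infested levels at 48 h lie above those at 24 h in each gene, and in GLYMA01G35500 the mock levels at 96 h (1.43 to 2.1 CPM) lie below the infested ones (6.31 to 7.17 CPM).

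The 60 genes were spread over 12 of the 13 chromosomes. Chromosome 6 held 8, chromosomes 3 and 9 held 7 each, chromosomes 1 and 10 held 6 each, and chromosome 5 held 0 of its 2213 ids. With at most 10 other ids between neighbours, 10 genes formed 5 runs, each of 2 genes. The opposite list also gave 5 runs with 10 genes. With 5 ids allowed between neighbours the 60 genes gave 2 runs of 4 genes in all, and with 20 ids 5 runs of 11 genes. Order was read from the ids, which number genes along a chromosome, and distances in bases were not used here.

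The closest neighbours were GLYMA09G04140 and GLYMA09G04150, with no id between them. GLYMA09G04140 had 1.29 to 4.90 CPM in infested P203 (median 4.23) and 0.280 to 0.676 CPM in the 9 infested Dongnong47 libraries. GLYMA09G04150 had 12.7 to 86.5 CPM in infested P203 (median 30.9) and 1.89 to 8.86 CPM in the 9 infested Dongnong47 libraries. Neither overlapped, and both stayed on the Dongnong47 side in Dongnong47 replicate 1 at 96 HAI. In mock P746 both were on the P203 side at 24 HAI, with 4.42, 10.6 and 5.25 CPM and 29.6, 85.3 and 33.9 CPM. Of the 6 mock P746 libraries at 48 and 96 HAI, 4 were on the P203 side for GLYMA09G04140 and 5 for GLYMA09G04150.

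GLYMA03G07310 and GLYMA03G07350 had 1 id between them. In infested P203 they had 1.70 to 10.6 CPM and 3.03 to 10.9 CPM, and in Dongnong47 replicate 1 at 96 HAI 16.6 and 11.4 CPM. Both were on the P203 side in 17 of 18 P746 libraries, and both had 0 counts in the remaining one, infested replicate 3 at 48 HAI.

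GLYMA06G23866 and GLYMA06G24300, with 8 ids between them, did not share their pattern in P746. In mock P746 at 24 HAI, GLYMA06G23866 had 6.29, 8.75 and 6.31 CPM, on the P203 side, and GLYMA06G24300 had 0.198, 0 and 0 CPM, on the Dongnong47 side. In infested P203 they had 14.9 to 28.6 CPM and 7.40 to 32.0 CPM, and in the 8 infested Dongnong47 libraries at most 0.0699 and 0.0751 CPM.

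GLYMA10G28140 and GLYMA10G28270 had 9 ids between them and were both on the Dongnong47 side in mock P746 at 24 HAI, with 0.198, 0 and 0.112 CPM and 4.49, 10.8 and 3.8 CPM. They differed in Dongnong47, where GLYMA10G28140 had at most 0.150 CPM in 8 infested libraries and GLYMA10G28270 had 3.31 to 17.7 CPM. GLYMA03G03560 and GLYMA03G03711, with 7 ids between them, had 13.3 to 115 CPM and 1.58 to 12.2 CPM in infested P203, and 0.570 to 3.03 CPM and 0 to 0.447 CPM in 8 infested Dongnong47 libraries.

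Next to some of the 60 genes lay genes with the opposite difference. GLYMA03G03721, the id after GLYMA03G03711, had 0 counts in all 9 P203 mock libraries and 1.8 to 29.6 CPM in the Dongnong47 mock libraries. GLYMA09G04840, 2 ids from GLYMA09G04820, had at most 0.0578 CPM in P203 mock libraries and 0.794 to 9.51 CPM in Dongnong47 mock libraries. GLYMA03G24250, 3 ids from GLYMA03G24190, had at most 2.1 CPM in P203 mock libraries and 5.80 to 8.10 CPM in Dongnong47 mock libraries. GLYMA06G40740 and GLYMA06G37040 lay 4 and 9 ids from GLYMA06G40790 and GLYMA06G37286. Of 875 ids within 10 ids of a member that reached 1 CPM, 5 others had all P203 mock levels above all Dongnong47 mock levels, 0.571%, and 7 had the opposite, 0.8%. Among the 26087 other ids that reached 1 CPM, the shares were 0.149% and 0.402%, and these shares were not tested.

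Ids and counts of the 60 genes had further features that the score did not use. In 16 of 60 ids, 26.7%, the last digit was not 0, beside 15.8% of the ids that reached 1 CPM and 31.7% of the opposite list. More than 50% of the listed values were not whole numbers in 18 genes, 30%, beside 21.1% of the ids that reached 1 CPM and 36.7% of the opposite list. All listed values were whole in 19 genes, beside 36.8% of the ids that reached 1 CPM. Estimated counts that are not whole come from reads divided between genes or transcripts, and the values of these 18 genes are uncertain to that extent.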

How the data were processed

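Libraries were read as the tables of estimated counts that the authors deposited, 1 per library, with 18.0% to 23.3% of values not whole. This share was 18.0% to 20.4% in the libraries at 24 HAI and 21.5% to 23.3% in the later ones, without overlap. According to the methods of the study, reads (Illumina HiSeq, paired ends) were trimmed, mapped to Glycine_max_v2.1 with HISAT2 2.1.0 and counted with StringTie 1.3.3. The study calculated its TPM values with RSEM, and the submitters' processing notes name CASAVA 1.8 and Bowtie. The ids have the form of the Wm82.a1 annotation, and which annotation was used for counting was not settled. An id absent from a library was set to 0. In 7 libraries, all at 24 HAI, a line without an id was left out. The part of these differences between files in the differences between times was not tested.

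The 60 genes, the gene lists and the tests were chosen with earlier results of these data known. Estimated counts on chromosomes 1 to 13 were rounded and tested with edgeR 4.0.16 (quasi-likelihood test, TMM, minimum count 10, minimum total 15) in R 4.3.3, with limma 3.58.1 and Benjamini-Hochberg adjustment over all tested ids. The fits between genotypes held the 18 infested libraries of the pair, averaged over the 3 times, and the fits within P203 held 6 libraries. DESeq2 1.42.0, other scalings and filters, all loci, single times, the replicate block and each library left out were alternatives. The fit was tested on simulated data. Tables were read with pandas 2.3.3 and numpy 2.4.6 and drawn with matplotlib 3.10.9.

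Named with values were the 10 highest scores, the annotated genes, runs, 3 genes on each side of the limit, up to 5 called genes in each comparison and direction, and up to 5 genes with the highest and lowest number of P746 libraries on the P203 side. GLYMA08G06730 and the lists of genes in libraries that stood apart were added after their values were seen. The methods of the study describe the 3 replicates of a group as independent samples. Same-numbered replicates did not deviate together in every pair of any comparison, so they were not treated as paired. Correlations of their deviations ran from -0.624 to 0.752. Between infested P203 and infested P746, 5 of 9 pairs were above 0.1, with 0.635, 0.752 and 0.408 at 48 HAI. Fits that combine an alternative with a left-out library were chosen after seeing the data.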

Additional observations from a re-analysis of the deposited data

Results flagged for a closer look

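Replicate 1 of infested Dongnong47 at 96 HAI had 54 of the 60 genes on the P203 side, against 0 to 7 in the other 8 infested Dongnong47 libraries. Its gap to the nearest of these was 0.870 of the range of the group, above the critical value of Dixon's test for 9 libraries. Chance passes this limit in about 1 of 20 groups. The cause was not tested.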

How the results depend on the processing

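Of 10 counts, 153 values under alternatives stayed within 1.5 times and 33 moved further. P203 against Dongnong47 gave 36 called genes with 48 HAI alone, beside 62 of 22371 ids higher, and 0 with 96 HAI alone, beside 0 ids. It gave 2 with 96 HAI alone without Dongnong47 replicate 1, beside 2 of 23404 ids higher. With 1 library left out it gave 55 to 59, beside 704 to 1809 ids higher. With DESeq2 it gave 51, all higher, beside 1714 of 25035 ids higher. P746 against Dongnong47 gave 51 with DESeq2, beside 895 of 25143 ids higher, and 15 with 24 HAI alone, beside 29 of 24186. With 1 library left out it gave 0 to 44, beside 1 to 509 ids higher. Without P746 replicates 1 and 3 at 24 HAI and 3 at 48 HAI, the median log2 fold change of the genes was 2.91. Without these and Dongnong47 replicate 1 at 96 HAI it was 4.51. In both of these fits the 24 HAI group of P746 rested on 1 library, and the libraries left out stood apart in the same genes. Without that Dongnong47 library alone, P746 against Dongnong47 gave 38, beside 135 of 25903 ids higher, and with DESeq2 57, beside 1689. Still without it, all loci gave 24, beside 114 of 39479 ids higher. No filter gave 37, beside 127 of 31900, and the replicate block gave 14, beside 36 of 25903. P203 against P746 gave 0 with any 1 library left out, where 0 ids were called. Without the same 3 P746 libraries its median log2 fold change was 0.89, with 1 P746 library at 24 HAI. Infested against mock P203 at 96 HAI gave 8 with DESeq2, beside 1781 ids higher and 2146 lower of 23208. With no filter it gave 2, beside 645 ids higher and 664 lower of 30256. With all loci it gave 2, beside 905 ids higher and 729 lower of 32819. The replicate block gave 0, where 0 ids were called. With 1 library left out it gave 0 to 2, beside 0 to 717 ids higher and 0 to 539 lower. Infested P203 at 48 against 24 HAI gave 16 with DESeq2, beside 2451 ids higher and 2159 lower of 22830. With the replicate block it gave 0, beside 81 ids higher and 45 lower. With 1 library left out it gave 0 to 10, beside 0 to 1337 ids higher and 0 to 1050 lower. Infested P203 at 96 against 48 HAI gave 1 with DESeq2, beside 195 ids higher and 433 lower of 22604. With 5 ids allowed between neighbours, 4 genes were in runs. The cause was not tested. For single genes, 549 values kept their call, 95 lost it and 0 changed sign. With 1 library left out of the score, 51 to 60 of the 60 genes stayed in the list.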

Other observations

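GLYMA10G23540, the first gene outside the list, was low in P203 at 24 HAI alone. It had 0.268, 0.0446 and 0.315 CPM in infested P203 and 0.132, 0.516 and 0.186 CPM in mock P203 at 24 HAI. At 48 HAI it had 19.1, 17.0 and 19.6 CPM in infested P203 and 15.4, 14.6 and 17.2 CPM in mock P203. In mock Dongnong47 it had 0 counts in all 9 libraries, so its place outside the list rests on the 24 HAI libraries of P203.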
